A study of Mus musculus with 9 samples.

Results

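Goblet cell genes, whose products these cells of the gut make, pack into granules and secrete as mucus, are described here in 10 members, Muc2, Tff3, Spink4, Agr2, Fcgbp, Clca1, Zg16, Sytl2, Rep15 and Bcas1. They were taken by symbol, through GENCODE release M21, from a table of raw read counts for 57180 Ensembl gene identifiers, and all 10 were in it. All 10 also passed the filter on low counts, which left 13405 genes to test. The rule works on gene symbols, but the set was proposed with earlier results of these data in view.

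The libraries came from Lgr5-GFP+ intestinal stem cells of the mouse small intestine, sorted by flow cytometry. The mice carried Lgr5-EGFP-CreERT2, in which the Lgr5 promoter drives both the green fluorescent protein used for the sort and a tamoxifen-inducible Cre, together with Kansl1 f/f, whose deletion removes the scaffold protein of the NSL histone acetyltransferase complex. KO day 3 and KO day 4 had daily tamoxifen for 3 and 4 days, and the control group, labelled KANSL1-WT, had corn oil, with 3 libraries in each of the 3 groups. Ages, and whether the corn oil mice carried Kansl1 f/f and whether each library is a separate animal, are not stated in the sources used here, so p-values measure only the spread between these libraries, which may be technical. Tamoxifen itself cannot be told apart from the loss of KANSL1. The comparisons ask how transcripts of the stem cell compartment differ after KANSL1 is lost, and whether the difference grows between the 2 times.

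Intestinal mucus is a gel of the mucin MUC2, which goblet cells fold as disulfide-linked multimers in the endoplasmic reticulum, coat with sugars in the Golgi and store in granules. Trefoil peptides, lectins, proteases and protease inhibitors are packed and released with it. Stem cells at the crypt base give rise to goblet cells through secretory progenitors, whose fate is set by ATOH1 and then by SPDEF and GFI1, and progenitors and Paneth cells can carry some of the same transcripts.

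The libraries differed in make-up in ways that touch every result below. Totals were 8400458 to 21484679 counts. Mitochondrial transcripts took 16.4% to 25.8% of counts for controls, 18.96% to 32.4% in KO day 3 and 66.9% to 72.1% in KO day 4, so that nuclear genes held only 3115374 to 5614186 counts per library at KO day 4. Levels are given as CPM, a gene's counts relative to the size of its library, with that size set by TMM, a method that sets the typical gene equal between libraries. Under TMM, tested genes had a median log2 fold change at KO day 4 against control of -0.06, compared with -0.55 with counts of nuclear genes as the library size and -1.95 with all counts. Replicate 1 of KO day 3 (correlation across genes of log2 CPM of 0.937 and 0.941 with the others) and replicate 3 of KO day 4 (0.897 and 0.903) stood apart, against 0.975 to 0.980 among controls. Kansl1 was at 4.46, 11.4 and 9.83 CPM in controls, 2.81, 2.99 and 2.55 in KO day 3 and 2.93, 5.09 and 8.96 in KO day 4, so the libraries labelled KO day 4 replicates 2 and 3 lay within the controls for the targeted gene. The edgeR adjusted p was 0.12 in KO day 3 and 0.345 in KO day 4, and which exons are deleted is not stated in the sources used here. Lgr5 itself was at 30.6 to 39.3 CPM in controls, 19.4 to 38.9 in KO day 3 and 14.8 to 26.7 in KO day 4.

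Markers of other cells moved at KO day 4 as well, and their part in the results on goblet genes was not tested. Of 14 Paneth cell markers 14 rose with TMM, and 5 with all counts, and their sum went from 23560 to 58413 CPM of nuclear counts across controls to 126924 to 174047. The 10 mast cell markers summed to 0.100 to 0.644 CPM of nuclear counts across controls and 462 to 1286 at KO day 4. Fcer1a, Ms4a2, Mcpt1 and Mcpt2 were at 0 in the controls and Mcpt1 at 0 at KO day 4. All 8 that were tested rose under both scalings. With so few control counts they could pass the filter on low counts only through KO libraries, so that count carries little weight. Of 7 tested immune cell markers 6 rose under both scalings, and 9 of the 14 listed were at 0 in the controls. Among all tested genes 11.1% were called higher with TMM, and 288 of 13405 with all counts. The 16 enteroendocrine markers summed to 58.6 to 173 CPM of nuclear counts across controls and 449 to 768 at KO day 4, and the 10 tuft cell markers to 8.60 to 10.7 and 151 to 386. The 12 stem cell markers were all detected in each group and summed to 18920 to 22862 CPM of nuclear counts across controls, against 2853 to 7674 at KO day 4. With TMM 6 of these 12 were called lower and 0 higher. Enterocyte markers summed to 1019 to 1164 CPM of nuclear counts across controls and 639 to 704 at KO day 4, with 2 of 13 tested called higher and 3 lower. In bulk libraries, more goblet-type cells in the sort and more of these transcripts per cell cannot be told apart.

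Of the 10 goblet genes, 5 rose and 1 fell at KO day 4 against control with TMM scaling, while scaling by all counts gave 1 higher and 5 lower. Across all tested genes 22.5% were called with TMM in either direction by edgeR's quasi-likelihood test at an adjusted p under 0.05, 11.1% higher and 11.5% lower. With all counts, 288 of the 13405 tested genes were called higher and 10769 lower, so most tested genes were lower under that scaling. Muc2, Spink4, Tff3, Agr2 and Sytl2 were the 5 that rose, and Fcgbp was the 1 that fell. Each of these 6 had every KO day 4 library on 1 side of every control. Among all tested genes 20.6% lay wholly above the controls and 26.4% wholly below. The median log2 fold change of the 10 was 1.08, against -0.06 for all tested genes.

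**Figure D1:**
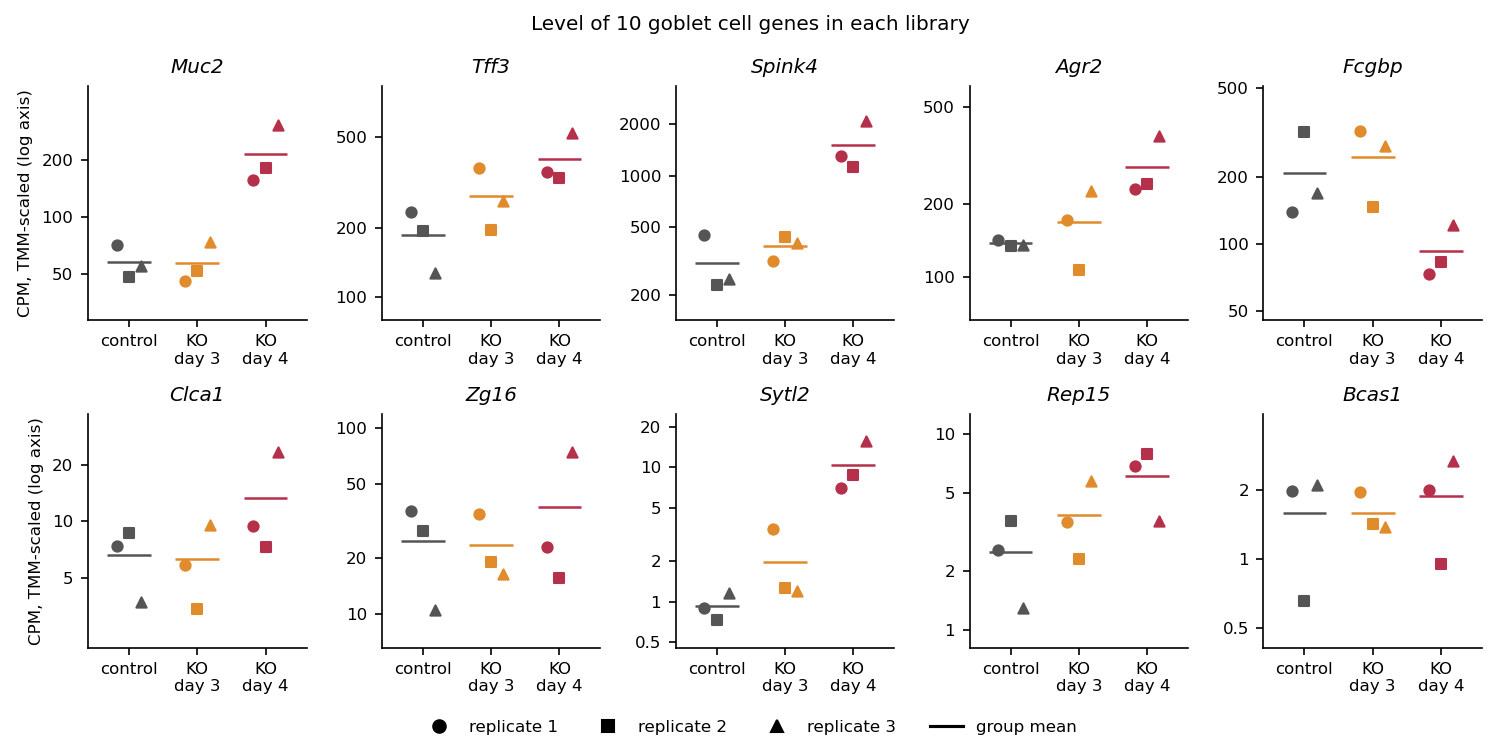
Each panel plots 1 gene, with the level in CPM scaled by TMM on a log axis that differs between panels; points are single libraries, marker shapes are replicate numbers and lines are group means of 3 libraries. Muc2 and Spink4 at KO day 4 lie above every other library, Fcgbp at KO day 4 lies below every other library, and Zg16, Clca1 and Bcas1 overlap between groups; with all counts as the library size Muc2 at KO day 4 was at -0.02 on the log2 scale.

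Upstream sequence is shown for Muc2 and Agr2, which rose, and Fcgbp, which fell, since these 3 of the 10 are in the RefSeq promoter table (GRCm38.p6). Each run holds the 250 bases before the start that RefSeq annotates, which for Agr2 lies inside the gene as GENCODE draws it, so that the last bases of that run are genic there. On the plus strand the runs are chr7:141690090-141690339 for Muc2, chr12:35992675-35992924 for Agr2 and chr7:28070986-28071235 for Fcgbp. Capitals mark matches, on either strand, to CAGNTG (an E-box of the kind bound by helix-loop-helix factors such as ATOH1), TGTTTAC (forkhead factors), TTTATG (caudal factors such as CDX2), CCACCC (the KLF family) and TATAAA.
Muc2: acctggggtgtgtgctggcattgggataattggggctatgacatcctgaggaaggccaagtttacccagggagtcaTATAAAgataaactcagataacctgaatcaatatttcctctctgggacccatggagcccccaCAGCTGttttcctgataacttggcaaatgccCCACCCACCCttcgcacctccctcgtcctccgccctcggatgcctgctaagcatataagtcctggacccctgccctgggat
Agr2: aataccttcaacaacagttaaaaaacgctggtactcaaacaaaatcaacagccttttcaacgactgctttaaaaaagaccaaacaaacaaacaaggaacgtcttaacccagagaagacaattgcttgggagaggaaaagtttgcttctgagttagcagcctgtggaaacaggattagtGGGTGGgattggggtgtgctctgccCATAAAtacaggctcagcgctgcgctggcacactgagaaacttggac
Fcgbp: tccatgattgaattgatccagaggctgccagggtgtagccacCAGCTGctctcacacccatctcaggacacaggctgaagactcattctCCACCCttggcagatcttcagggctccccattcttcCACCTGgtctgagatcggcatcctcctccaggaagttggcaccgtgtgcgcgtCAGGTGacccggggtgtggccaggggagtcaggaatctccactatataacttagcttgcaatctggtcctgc
CAGNTG was found in Muc2 at positions -112 to -107 from the start and in Fcgbp at 3 places, and 44.8% of 32536 promoter windows of this length held it. CCACCC was found in all 3 and in 28.1% of windows, where in Muc2 2 matches overlap from -81 to -72. TTTATG was in Agr2 alone of the 3 (10.8% of windows), TATAAA in Muc2 alone (12.3%), and TGTTTAC in none of the 3 (3.17%). The gene that fell and the genes that rose thus share motif letters that are common among promoters, and a match is a description of the letters and not a site of binding.

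Muc2 encodes the gel-forming mucin that gives intestinal mucus its structure (ENSMUSG00000025515, chromosome 7, 141690340 to 141754693, plus strand, GRCm38). It was at 70.7, 48.2 and 55.1 CPM in the controls, 45.8, 51.7 and 73.8 in KO day 3 and 156, 182 and 307 in KO day 4. The control and KO day 3 libraries covered the same range, and all 3 KO day 4 libraries lay above every other library. The log2 fold change at KO day 4 was 1.89 (SE 0.28, edgeR adjusted p = 0.0013), a fold of 3.70 with a 95% interval of 2.43 to 5.64. With nuclear counts as the library size it was 1.38 (edgeR adjusted p = 0.0025), and with all counts -0.02 (edgeR adjusted p = 0.93). At KO day 3 it was -0.02 (SE 0.27, edgeR adjusted p = 0.98), with a 95% interval of -0.61 to 0.57.

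Spink4, a Kazal-type serine protease inhibitor of goblet granules (ENSMUSG00000028415, chromosome 4, 40920052 to 40931395, plus strand), was the most abundant of the set per kilobase of exon in the mean of every group. Its levels were 449, 231 and 251 CPM in controls, 319, 440.3 and 404 in KO day 3 and 1303, 1131 and 2092 in KO day 4. The KO day 4 libraries did not overlap those of either other group, and KO day 3 lay within the range of the controls. The log2 fold change at KO day 4 was 2.28 (SE 0.30, edgeR adjusted p = 0.00085), or 1.79 with nuclear counts (edgeR adjusted p = 0.00070) and 0.40 with all counts (edgeR adjusted p = 0.13).

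Tff3 encodes a trefoil peptide that goblet cells release with mucin and that aids repair of the epithelium (ENSMUSG00000024029, chromosome 17, 31125306 to 31129646, minus strand). It was at 235, 194 and 128 CPM in controls, 365, 197 and 263 in KO day 3 and 350.1, 330 and 519 in KO day 4. The KO day 4 libraries were above all controls but overlapped KO day 3, where replicate 1, a library that stood apart, was the highest. The log2 fold change with TMM at KO day 4 was 1.10 (SE 0.28, adjusted p = 0.017 by edgeR), and it turned to -0.79 (edgeR adjusted p = 0.017) with all counts. The call was lost with nuclear counts as the library size (0.61, edgeR adjusted p = 0.070), and without control replicate 2, control replicate 3 or KO day 4 replicate 3, over a range of adjusted p from 0.010 to 0.066 as each library was left out.

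Agr2, a protein disulfide isomerase of the endoplasmic reticulum that goblet cells need to make MUC2 (ENSMUSG00000020581, chromosome 12, 35992907 to 36004087, plus strand), was the steadiest of the set in controls, at 142, 134 and 135 CPM. It was at 171, 106 and 226 CPM in KO day 3 and 229, 241 and 382 in KO day 4, so that the lowest KO day 4 library was just above the highest of KO day 3. The log2 fold change with TMM at KO day 4 was 1.05 (SE 0.27, adjusted p = 0.017 by edgeR) and -0.87 (edgeR adjusted p = 0.0091) with all counts. Without any 1 of the 3 controls, or without KO day 4 replicate 3, it did not pass, and the adjusted p ranged from 0.0080 to 0.062. With nuclear counts as the library size it was 0.54 (edgeR adjusted p = 0.13).

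Sytl2, a synaptotagmin-like protein that binds RAB27 and tethers secretory granules at the plasma membrane (ENSMUSG00000030616, chromosome 7, 90302252 to 90410719, plus strand), had the largest fold change of the 10 on few reads. It had 23, 22 and 26 counts in controls, 41, 29 and 34 in KO day 3 and 60, 55 and 70 in KO day 4, in libraries with fewer nuclear counts. In CPM these were 0.893, 0.727 and 1.17 in controls, 3.496, 1.26 and 1.21 in KO day 3 and 7.03, 8.74 and 15.7 in KO day 4. No library of a KO group was as low as the highest control. The log2 fold change at KO day 4 was 3.48 (SE 0.55, edgeR adjusted p = 0.0018), a fold of 11.2 with a 95% interval of 4.84 to 25.8. Of the 10 genes Sytl2 alone was called higher with all counts as the library size too (edgeR adjusted p = 0.025). The part of other cells in this rise was not tested.

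Fcgbp went the other way. It encodes a large protein with repeats of the von Willebrand factor D type that is bound into the mucus gel (ENSMUSG00000047730, chromosome 7, 28071236 to 28120862, plus strand). Its levels were 138, 316 and 169 CPM in controls, 319, 146 and 274 in KO day 3 and 72.8, 82.4 and 122 in KO day 4. The KO day 4 libraries lay below all 6 others, which spread widely. The log2 fold change was -1.18 (SE 0.35, edgeR adjusted p = 0.034), or 0.44 of the control level with a 95% interval of 0.26 to 0.75, and it was lower under each scaling, at -1.70 with nuclear counts and -3.13 with all counts. With TMM the call was lost without control replicate 2, the highest control (-0.75, edgeR adjusted p = 0.15), and without KO day 4 replicate 1 or KO day 4 replicate 2, over a range of adjusted p from 0.026 to 0.15. The neighbouring gene 9530053A07Rik, looked at after the values were seen, had 0 to 26 counts in a library.

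**Figure D2:**
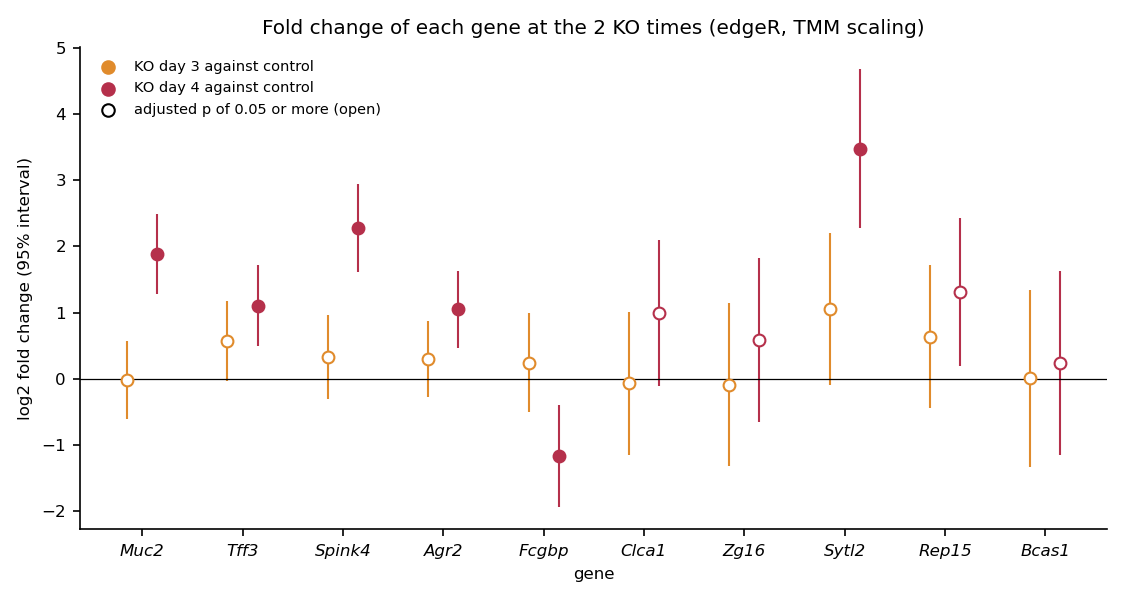
Log2 fold change of each of the 10 genes against control (vertical axis) at KO day 3 and KO day 4, from edgeR with TMM scaling; bars are 95% intervals and filled points passed an adjusted p of 0.05. All KO day 3 points are open, and at KO day 4 filled points lie above 0 for Muc2, Tff3, Spink4, Agr2 and Sytl2 and below 0 for Fcgbp; with all counts as the library size the points of Muc2, Tff3 and Agr2 fall below 0.

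For 4 members no difference between KO day 4 and control passed the edgeR test with TMM, although with all counts Zg16 (-1.33, edgeR adjusted p = 0.026) and Bcas1 (-1.64, edgeR adjusted p = 0.0339) were called lower. In all 4 the KO day 3 libraries overlapped the controls, with Clca1 at 3.42 to 9.53 CPM, Zg16 at 16.4 to 34.6, Rep15 at 2.30 to 5.74 and Bcas1 at 1.38 to 1.96. Clca1, a secreted metalloprotease that processes the mucus gel (ENSMUSG00000028255, chromosome 3), was at 7.41, 8.72 and 3.73 CPM in controls and 9.49, 7.31 and 23.3 at KO day 4, with a log2 fold change of 0.99 and a 95% interval of -0.12 to 2.10 (edgeR adjusted p = 0.18). Zg16, a lectin-like granule protein that binds bacteria (ENSMUSG00000049350, chromosome 7), was at 35.7, 27.8 and 10.6 CPM in controls and 22.7, 15.6 and 74.3 at KO day 4. The highest Zg16 library, KO day 4 replicate 3, was a library that stood apart, and the log2 fold change of 0.59 (95% interval -0.65 to 1.83, edgeR adjusted p = 0.48) became -0.37 without it. Rep15, an effector of the small GTPase RAB15 (ENSMUSG00000040121, chromosome 6), was at 2.56, 3.60 and 1.30 CPM in controls and 6.92, 7.95 and 3.58 at KO day 4. Its log2 fold change of 1.31 (edgeR adjusted p = 0.087) passed with DESeq2, with limma voom and without the 2 libraries that stood apart (1.56, edgeR adjusted p = 0.041). Bcas1, a cytoplasmic protein used as a marker of goblet cells (ENSMUSG00000013523, chromosome 2), had 17, 6 and 12 counts at KO day 4, and its 95% interval of -1.16 to 1.62 corresponds to folds from 0.45 to 3.08. Clca1 stands in a cluster of related genes, of which Clca3b had 11047 to 17678 counts in control libraries against 83 to 264 for Clca1, so its single value is uncertain if reads were shared. Bcas1 shares exon bases with antisense genes on the other strand, which had 0 counts.

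At KO day 3 none of the 10 genes was called against control by edgeR, none had an unadjusted p under 0.05, and DESeq2 and limma voom called 0. Of all tested genes 0.44% were called at that time, 0.142% higher and 0.298% lower. The values ran from -0.09 (Zg16) to 1.06 (Sytl2), with a median of 0.27 against -0.02 for all tested genes. Tff3 at 0.57 had a 95% interval of -0.04 to 1.17, and Sytl2 one of -0.10 to 2.21. Sytl2 was the 1 member whose KO day 3 libraries lay wholly above the controls, as did 12.1% of tested genes, and 0 lay wholly below, against 18% of tested genes.

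Between KO day 3 and KO day 4, where controls enter only the estimate of spread and the scaling, 3 of the 10 genes rose and 1 fell with TMM scaling, against 12.5% of tested genes called, 6.52% higher and 6.03% lower. With all counts 0 were higher and 3 lower, beside 189 higher and 9319 lower of the 13405 tested genes. Muc2 rose by 1.91 on the log2 scale (standard error 0.28, edgeR adjusted p = 0.0035), Spink4 by 1.96 (SE 0.30, edgeR adjusted p = 0.0044) and Sytl2 by 2.43 (SE 0.53, edgeR adjusted p = 0.016). Fcgbp fell by 1.42 (SE 0.35, edgeR adjusted p = 0.027). The Sytl2 call was lost without KO day 3 replicate 2 (adjusted p = 0.065 by edgeR). That of Fcgbp was lost without KO day 3 replicate 1, KO day 3 replicate 3, KO day 4 replicate 1 or KO day 4 replicate 2, with edgeR adjusted p from 0.019 to 0.084 over the 9 libraries left out in turn. Agr2 at 0.76 (edgeR adjusted p = 0.082) and Tff3 at 0.54 (edgeR adjusted p = 0.22) did not pass. At KO day 4, 4 of the 10 lay wholly above KO day 3, Agr2 among them, as did 15.8% of tested genes, and 1 lay wholly below, as did 17%.

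Ratios within a library do not depend on how libraries are scaled, and they show which members moved apart. For every Muc2 count there were 1.96, 6.56 and 3.07 Fcgbp counts in controls, 6.97, 2.82 and 3.71 in KO day 3 and 0.466, 0.454 and 0.395 in KO day 4. The 3 KO day 4 values lay close together and far below the lowest of the other 6 libraries.

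**Figure D3:**
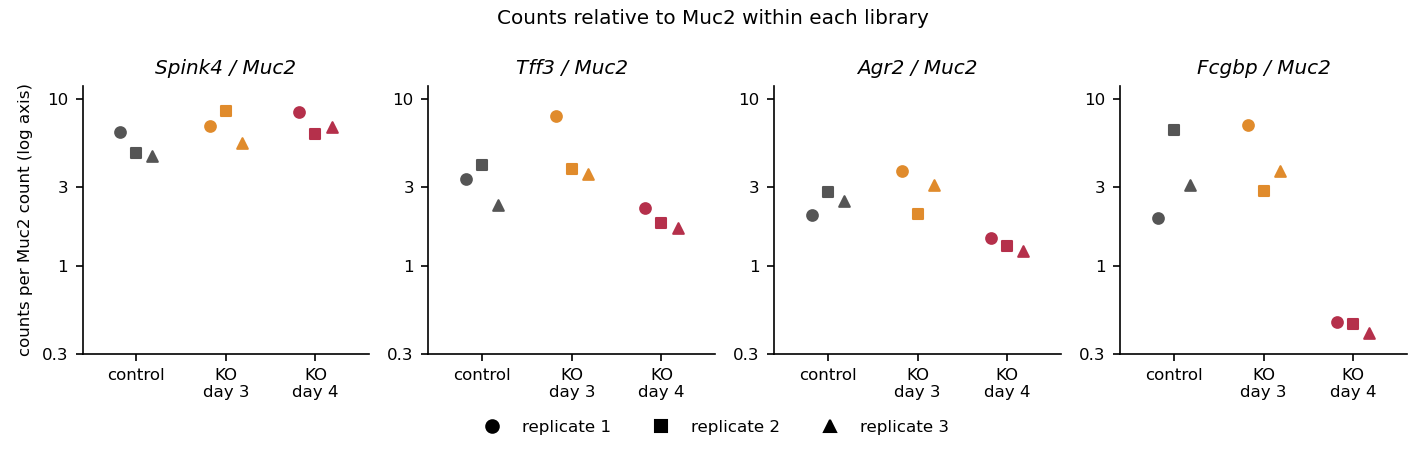
Counts of Spink4, Tff3, Agr2 and Fcgbp per Muc2 count in each library (vertical log axis, the same in each panel), by group, with marker shapes for replicate numbers. Spink4 lies at 4.56 to 8.52 over all 9 libraries, while Fcgbp at KO day 4 lies at 0.395 to 0.466, below every other library.

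Spink4 gave 4.56 to 6.35 counts per Muc2 count in controls, 5.47 to 8.52 in KO day 3 and 6.23 to 8.35 in KO day 4. These ranges overlap, although the KO day 4 values of 8.35 and 6.81 lay above every control. With 3 libraries per group the overlap does not show that Spink4 and Muc2 moved together. Agr2 gave 2.01 to 2.79 in controls and 1.24 to 1.47 at KO day 4, and Tff3 2.32 to 4.03 and 1.69 to 2.24, so both had fewer counts per Muc2 count in every KO day 4 library than in any control. A typical tested gene also had fewer, since with TMM the median log2 fold change was -0.06 and that of Muc2 1.89. How many of all genes lay below the controls by this ratio was not computed. Tff3 in KO day 3 replicate 1 was the highest of all, at 7.97. Set against a Paneth cell product in place of Muc2, there were 9.14 to 17.8 Muc2 counts per 1000 Lyz1 counts in controls, 9.08, 5.75 and 10.1 in KO day 3 and 5.96, 5.34 and 8.39 in KO day 4. All 3 KO day 4 libraries thus had less Muc2 for each Lyz1 count than any control. The same held for Spink4, at 33.3 to 57.1 per 1000 Lyz1 counts against 58.0 to 81.0 in controls. Lyz1 is 1 of the 14 Paneth cell markers, all of which rose with TMM. The share of all genes below the controls by the Lyz1 ratio was not computed.

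**Figure D4:**
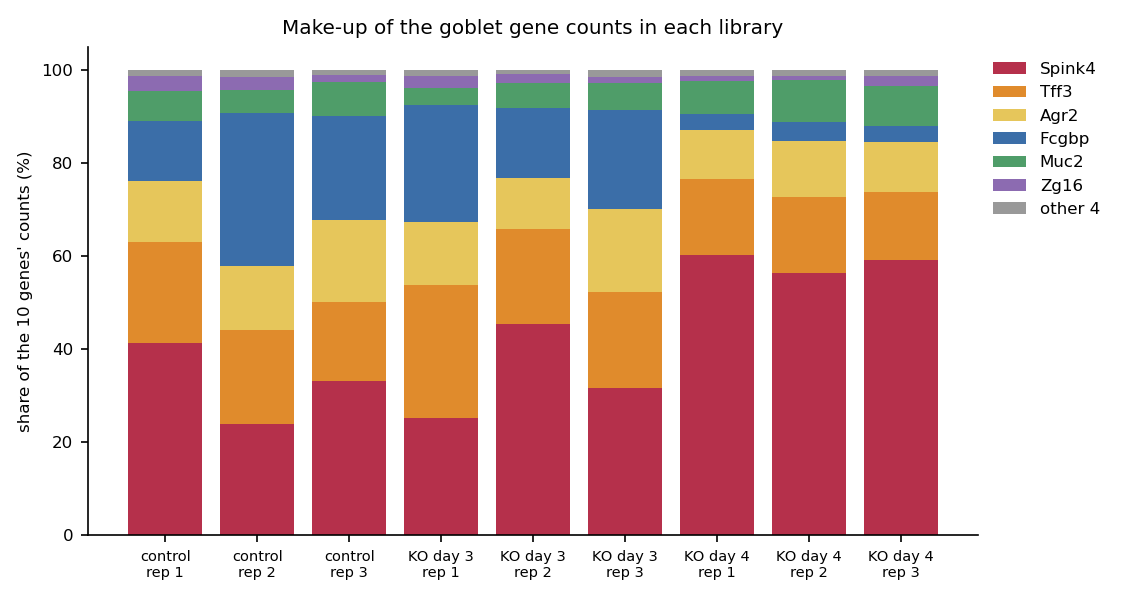
Share of each gene in the summed counts of the 10 genes (vertical axis, percent, stacked to 100) in each of the 9 libraries; the 4 genes of lowest count are drawn as 1 band. Spink4 takes 56.4% to 60.4% at KO day 4 and 23.9% to 45.5% in the other libraries, and Fcgbp takes 3.37% to 4.10% against 12.8% to 32.7%.

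Summed over the set, the goblet genes took 0.196% ± 0.024 of the nuclear counts for controls, 0.212% ± 0.034 in KO day 3 and 0.379% ± 0.112 in KO day 4 (SD, n = 3). Spink4 made up 32.8% ± 8.8 of that sum in controls and 58.6% ± 2.02 at KO day 4, and Fcgbp 22.6% ± 9.99 and 3.64% ± 0.41 (SD, n = 3). Muc2 itself was 6.27% of the sum in controls and 8.32% at KO day 4. KO day 4 replicate 3 was the highest library of its group for 9 of the 10 genes, the exception being Rep15, for which it was the lowest. Without it and KO day 3 replicate 1, Muc2 (1.54), Spink4 (1.97), Tff3 (0.87), Agr2 (0.78), Sytl2 (3.08) and Fcgbp (-1.42) were still called at KO day 4 with TMM scaling.

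Levels were compared between genes per length of all annotated exons, so the order depends on those lengths and on reads covering whole transcripts. In controls the order was Spink4 at 650.4 ± 253 CPM per kilobase, Tff3 at 377 ± 110.2, Agr2 at 106 ± 3.46, Fcgbp at 19.8 ± 9.04, Zg16 at 19.6 ± 10.2, Muc2 at 8.14 ± 1.62, Clca1 at 1.75 ± 0.69, Rep15 at 1.5 ± 0.69, Bcas1 at 0.42 ± 0.21 and Sytl2 at 0.067 ± 0.016 (SD, n = 3). The control ranges of Fcgbp and Zg16, of Zg16 and Muc2, and of Clca1 and Rep15 overlapped. Within each control library, however, Zg16 was above Muc2 (28.4 and 9.92, 22.1 and 6.77, 8.40 and 7.73 CPM per kilobase). Clca1 was likewise above Rep15 in each control, while Fcgbp was below Zg16 in replicate 1 and above it in replicates 2 and 3. For the other neighbours the control ranges did not overlap, although the lowest Spink4 library, at 484, was close to the highest of Tff3, at 477. At KO day 4 Muc2, at 30.2 ± 11.4 CPM per kilobase, stood above Fcgbp at 8.79 ± 2.46, where in controls it had stood below; exon lengths are those annotated, 7127 bases for Muc2 and 10497 for Fcgbp.

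**Figure D5:**
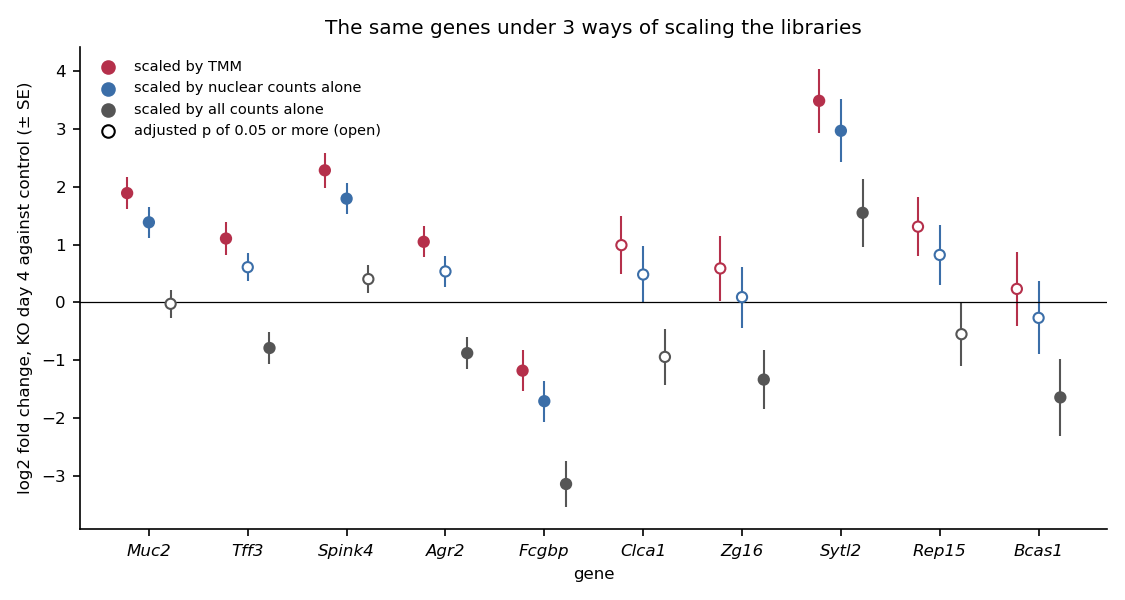
Log2 fold change at KO day 4 against control (vertical axis, ± SE) of each gene with libraries scaled by TMM, by nuclear counts alone or by all counts alone; filled points passed an adjusted p of 0.05. The order of the genes is the same in all 3, Sytl2 lies above 0 and Fcgbp below 0 in each, and Muc2, Tff3, Agr2, Clca1, Zg16, Rep15 and Bcas1 lie below 0 with all counts.

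Regulators of the secretory fate changed in both directions at KO day 4 with TMM scaling. Of 12 listed factors 5 rose and 3 fell (median 0.80), beside 11.1% of all tested genes higher and 11.5% lower. With all counts 0 rose and 7 fell, beside 288 higher and 10769 lower of the 13405 tested genes. With nuclear counts as the library size 2 rose and 4 fell, beside 846 higher and 4240 lower of 13393 tested genes. Foxa1 and Creb3l4 were then not called (edgeR adjusted p = 0.157 and 0.0504). Spdef, which drives goblet and Paneth maturation, was at 8.31, 6.74 and 6.96 CPM in controls and 21.1, 20.7 and 32.9 at KO day 4 (log2 fold change 1.76 with SE 0.39, edgeR adjusted p = 0.0091; -0.15 with all counts). Gfi1, a repressor that acts after ATOH1, had a log2 fold change of 2.38 (edgeR adjusted p = 0.024), the forkhead factor Foxa1 0.97 (edgeR adjusted p = 0.011) and Creb3l4 1.46 (edgeR adjusted p = 0.016); with all counts Gfi1 was at 0.42 and not called, and Foxa1 and Creb3l4 turned to -0.95 and -0.45. Elf3, an epithelial ETS factor, fell by 0.80 (SE 0.18, edgeR adjusted p = 0.0099), with each KO day 4 library below each control. The others, named after their values were seen, were Atoh1 (1.21, edgeR adjusted p = 0.0278), Foxa2 (-0.91, edgeR adjusted p = 0.0388) and Cdx2 (-0.58, edgeR adjusted p = 0.0383). 

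Under TMM, machinery that ties granules to the membrane was higher in more members than lower. Of 21 tested genes of granule docking and exocytosis 11 rose and 2 fell with TMM scaling (median 1.18), beside 11.1% and 11.5% of all tested genes. All counts gave 1 higher and 9 lower, beside 288 and 10769 of the 13405 tested genes. Sytl1, a relative of Sytl2, was at 6.44, 3.37 and 5.03 CPM in controls and 14.3, 18.1 and 23.5 at KO day 4 (log2 fold change 1.91 with SE 0.34, edgeR adjusted p = 0.0033; 0.02 with all counts). Mlph, which links RAB27 to a myosin, had 1.73, the granule GTPase Rab3d 1.49 and the calcium sensor Syt7 2.98; with all counts Syt7 was at 1.16 and not called, and Mlph and Rab3d turned to -0.20 and -0.42. Vamp8, the vesicle SNARE of mucin granule release, fell by 1.16 (SE 0.23, edgeR adjusted p = 0.0055), from 47.2, 47.1 and 37.5 CPM to 18.9, 18.8 and 21.3, and the second that fell, named after its value was seen, was the inflammasome sensor Nlrp6 (-1.01, edgeR adjusted p = 0.0126). Several of these genes also serve granule release in mast cells, whose markers rose in the same libraries, and that part was not tested.

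Enzymes that build the sugar chains of mucins were less uniform. Of 29 tested genes 6 rose and 2 fell with TMM scaling (median 0.16), beside 11.1% of all tested genes called higher and 11.5% called lower. All counts gave 1 higher and 21 lower, beside 288 and 10769 of the 13405 tested genes. Nuclear counts as the library size gave 3 higher and 8 lower of 30 tested (median -0.33), beside 846 and 4240 of 13393. Under that scaling C1galt1, Nans and Cmas were not called (edgeR adjusted p = 0.302, 0.199 and 0.223). Of 33 listed, St6galnac1 and Chst5 had 0 counts in all libraries. C1galt1, which makes the core 1 chain, was at 24.8, 28.5 and 28.6 CPM in controls and 48.3, 47.9 and 46.6 at KO day 4 (log2 fold change 0.80 with SE 0.18, edgeR adjusted p = 0.011; -1.10 with all counts). Nans and Cmas, of sialic acid synthesis, had log2 fold changes of 0.79 and 0.78, which turned to -1.12 and -1.12 with all counts. St3gal1, which adds sialic acid to core 1, had 1.95 (0.022 with all counts). Gcnt1, a branching enzyme, went from 0.155, 0.165 and 0.045 CPM to 4.45, 4.61 and 6.72 (log2 fold change 5.32 with SE 0.85, edgeR adjusted p = 0.0018). It was near 0 in KO day 3 too, at 0.341, 0.043 and 0.390 CPM. It thus passed the filter on low counts only through KO day 4, and the size of its fold change is uncertain. The part of other cells in it was not tested. The pair that fell, named after their values were seen, were B3gnt3 (-0.80, edgeR adjusted p = 0.0117) and B4galnt3 (-4.26, edgeR adjusted p = 0.0178). Of other mucins 3 of 12 could be tested, and the membrane mucin Muc3 fell by 1.35 (SE 0.33, edgeR adjusted p = 0.014).

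Most genes of protein folding in the endoplasmic reticulum, the compartment of AGR2, were not called at KO day 4 under TMM. Of 21 tested genes 3 rose and 1 fell with TMM scaling (median 0.24), a share no larger than the 22.5% of all tested genes called. All counts gave 0 higher and 19 lower, beside 288 and 10769 of the 13405 tested genes. Nuclear counts as the library size gave 1 higher and 7 lower (median -0.26), beside 846 and 4240 of 13393. Under that scaling Ern1 and Tmed3 were not called (edgeR adjusted p = 0.101 and 0.281). Ern2, the form of the IRE1 stress sensor found in mucus-making epithelium, was at 1.94, 2.35 and 2.43 CPM in controls and 7.74, 7.63 and 8.73 at KO day 4 (log2 fold change 1.84 with SE 0.41, edgeR adjusted p = 0.0098; -0.07 with all counts). Its relative Ern1 had a log2 fold change of 1.25 and the cargo receptor Tmed3 one of 0.73, while the disulfide isomerase Pdia4 fell by 0.60 (SE 0.18, edgeR adjusted p = 0.037); with all counts Ern1 and Tmed3 turned to -0.63 and -1.16.

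Of 15 other tested goblet genes 6 rose and 0 fell with TMM scaling (median 1.13), beside 11.1% and 11.5% of all tested genes. All counts gave 0 higher and 7 lower, beside 288 and 10769 of the 13405 tested genes. Nuclear counts as the library size gave 6 higher and 2 lower (median 0.63), beside 846 and 4240 of 13393. Tspan13, a tetraspanin, was at 30.0, 27.7 and 32.4 CPM in controls and 71.3, 84.1 and 108 at KO day 4 (log2 fold change 1.54 with SE 0.23, edgeR adjusted p = 0.0014; -0.37 with all counts). Guca2a, the hormone guanylin, had a log2 fold change of 1.83, Lrrc26 1.57, the chemokine Ccl9 1.63 and Smim6 1.13, each turning below 0 with all counts. The last of the 6, named after its value was seen, was the tryptase Tpsg1 (1.86, edgeR adjusted p = 0.0194). Mast cell markers rose in the same libraries, and their part in the Tpsg1 value was not tested. Between KO day 3 and KO day 4, 5 of these 15 rose and 0 fell, as did 9 and 1 of the 21 exocytosis genes, 2 and 1 of the 29 glycosylation genes and 2 and 5 of the 21 folding genes. Those are edgeR counts with TMM, beside 12.5% of all tested genes called. With all counts they were 0 and 6, 3 and 5, 1 and 22, and 0 and 19, beside 189 and 9319 of the 13405 tested genes. With nuclear counts they were 2 and 1, 6 and 2, 2 and 3, and 2 and 10, beside 625 and 2110 of 13393. Of the 12 fate factors edgeR with TMM called 0 between the 2 times (8 at an unadjusted p under 0.05), DESeq2 called 3 higher and 2 lower, and all counts gave 0 higher and 8 lower. Against control at KO day 3, edgeR with TMM called 0 genes in each of these lists except 1 of the folding genes. This was the stress-induced secreted factor Manf, which rose (0.82, edgeR adjusted p = 0.0488, named after its value was seen). With other scalings (RLE, nuclear counts or all counts) 0 folding genes were called at KO day 3, while DESeq2 called 7 higher, limma voom 8, and edgeR without the 2 libraries that stood apart 4. Vamp8, at 34.1, 24.7 and 18.8 CPM in KO day 3, was lower there with nuclear counts (edgeR adjusted p = 0.0386) and all counts (edgeR adjusted p = 0.0333). It was also called lower by limma voom (adjusted p = 0.0060) and by edgeR without those 2 libraries (adjusted p = 0.0217). It was not called with TMM (-0.77, edgeR adjusted p = 0.13), RLE or DESeq2.

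Across the 9 libraries, the genes whose pattern was most like that of Muc2, outside the set, were Tulp4, Ttc39a, Atp2a3, Cdhr5, Anxa2, Hid1, Lmna and Cldn4. Their log2 CPM, centred on each gene's own mean, differed from that of Muc2 by a root mean square of 0.16 (Tulp4) to 0.25 (Cldn4), against a median of 1.01 over 6086 candidates with a mean of at least 10 CPM. Atp2a3, a calcium pump of the endoplasmic reticulum, had means of 26.8, 29.7 and 112 CPM in control, KO day 3 and KO day 4. Among the 10 goblet genes Spink4 was closest to Muc2 by this measure, at 0.30, followed by Agr2 at 0.52, and Fcgbp was farthest, at 1.55. All of these patterns share the same 9 libraries and their scaling.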

How the data were processed

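RNA was measured in 9 libraries of sorted cells, 3 per group. The table deposited by the authors holds raw counts for each Ensembl gene, from reads aligned with HISAT2 2.0.4 to GRCm38 per the submitters' processing notes; the counting tool, strand setting and annotation release are not given in the sources used here. Symbols came from GENCODE M21 (51933 of 57180 identifiers). Genes passing edgeR's default filter (minimum count 10, total 15) were tested with the quasi-likelihood test of edgeR 4.0.16 in R 4.3.3, all 9 libraries in one fit with TMM, p-values adjusted by Benjamini-Hochberg over 13405 genes, threshold 0.05. SE is the log2 fold change divided by the root of F. CPM is per TMM-scaled library size; nuclear counts exclude mitochondrial genes. Alternatives were DESeq2 1.42.0, limma 3.58.1 voom with quality weights, other scalings and filters, a replicate block and libraries left out; scaling by nuclear counts was added after seeing the data. The members and lists were chosen with earlier results of these data known. The text names the 10 members, up to 5 genes per pathway list with the smallest p at KO day 4, and the 8 genes most like Muc2 with a mean of at least 10 CPM. Sequencing reads without molecular identifiers are not independent molecules.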

Additional observations from a re-analysis of the deposited data

Results flagged for a closer look

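For 4 of the 10 genes the difference from control was not the same at the 2 times. The change at KO day 4 minus that at KO day 3, which is the KO day 4 against KO day 3 contrast, was 1.91 for Muc2, 1.96 for Spink4 and 2.43 for Sytl2 on the log2 scale, and -1.42 for Fcgbp (edgeR with TMM, adjusted p = 0.00354, 0.00441, 0.016 and 0.0267). With all counts as the library size Fcgbp alone of these 4 was called.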

How the results depend on the processing

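Scaling changed more signs than any other choice tried. With the library size alone, log2 fold changes at KO day 4 against control were -0.023 for Muc2, -0.79 for Tff3, -0.87 for Agr2, -0.94 for Clca1, -1.33 for Zg16, -0.55 for Rep15 and -1.64 for Bcas1. Against KO day 3 they were -1.03 for Tff3, -0.81 for Agr2, -0.52 for Clca1, -0.94 for Zg16, -0.83 for Rep15 and -1.30 for Bcas1. At KO day 3 against control they were -0.010 for Spink4, -0.061 for Agr2, -0.14 for Fcgbp and -0.33 for Bcas1. With nuclear counts as the library size, Bcas1 was at -0.27 and -0.22 against control (KO day 4, then KO day 3) and at -0.048 between the KO groups. Other signs turned near 0. Voom gave -0.036 for Zg16 at KO day 4, and 0.070 for Muc2 and -0.071 for Fcgbp at KO day 3. Without the 2 libraries that stood apart, Zg16 was at -0.36 and Bcas1 at -0.065 at KO day 4, and Muc2 at 0.12 and Bcas1 at -0.16 at KO day 3. Without a filter Bcas1 at KO day 3 was at -0.012, and with only the 2 groups compared Muc2 there was at 0.0018. The cause was not tested. As each library was left out in turn, KO day 4 against control ranged from -0.14 to 0.54 for Bcas1 and -0.37 to 0.95 for Zg16. KO day 3 against control ranged from -0.25 to 0.15 for Muc2, -0.53 to 0.25 for Clca1, -0.48 to 0.27 for Zg16 and -0.37 to 0.26 for Bcas1, and KO day 4 against KO day 3 from -0.28 to 1.06 for Zg16 and -0.083 to 0.54 for Bcas1. The number of the 10 genes called at KO day 4 ranged from 3 to 6, with 3 (Muc2, Spink4 and Sytl2) without control replicate 2. The labels do not say whether replicate numbers pair the libraries. Departures from the group mean in same-numbered libraries of control and KO day 3 correlated by 0.12, 0.06 and 0.18. Differently numbered ones there ran from -0.14 to -0.01. Between control and KO day 4, same-numbered libraries gave -0.01, -0.02 and -0.03, and differently numbered ones -0.02 to 0.04. The replicate block gave 5 calls at KO day 4, 0 at KO day 3 and 5 between the 2 times, against 6, 0 and 4, and Fcgbp at KO day 4 was then at -1.19 (edgeR adjusted p = 0.0608), and Pdia4 at -0.60 (edgeR adjusted p = 0.0613). Few counts limit Sytl2, Rep15 and Bcas1, and outside the set Gcnt1.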
